A study of Mus musculus with 6 samples.

Results

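A set of 39 genes that encode the NRF2 regulators, the enzymes of glutathione and thioredoxin metabolism and the enzymes that supply them with NADPH was followed in mouse macrophages given a serotonin receptor agonist. The genes were picked by symbol from the known biology of these pathways, without a threshold on measured values. Earlier results of these data were known when the genes were chosen. Every one of the 39 symbols was found once among the 28822 gene identifiers of the count table, and all 39 were expressed enough to be tested. They were read in 7 arms: regulators, haem and quinone targets, glutathione synthesis and recycling, glutathione use, thioredoxin and peroxiredoxins, NADPH supply, and superoxide dismutases with catalase.

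The cells were bone marrow-derived macrophages (BMDMs, macrophages grown from marrow precursors), held in Transwell inserts, porous cups that let soluble factors through. HT22 cells, a mouse hippocampal neuronal line, lay below them and had undergone oxygen-glucose deprivation (OGD) for 2 h, a culture model of ischaemia. One group of 3 samples received BW723C86, an agonist of the 5-HT2B receptor, and the other 3 samples received its vehicle DMSO, and the comparison asks what the agonist did to macrophage transcripts. Both groups shared the deprived HT22 cells, so the values compare agonist with vehicle under deprivation only. The sources used here do not give the dose, the duration, the strain, sex and age of the mice, or the origin of the replicates. P-values thus cover the spread among these 6 samples alone, and that spread may be technical. The series title names BMDMs, while its design text allows BV2 microglia as well.

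Total counts ran from 58841307 to 75931615 per library. Levels are given as CPM, the count scaled to a common library size after TMM normalisation, and a count of 3 corresponded to 0.0386 to 0.0523 CPM, a limit that covers counting error only. Of 12 macrophage identity genes, 5 were higher, 4 lower and 3 not past the test with BW723C86, and their summed level, most of it Lyz2, went from 38180 ± 455 to 33964 ± 535 CPM (SD, n = 3). Csf1r went from 738 ± 2.45 to 1063 ± 43.1 CPM and Cd68 from 744 ± 6.88 to 838 ± 35.2 CPM, while Itgam went from 2088 ± 25.9 to 976 ± 39.5 CPM and Adgre1 from 689 ± 18.1 to 390 ± 23.4 CPM. Marker lists of other cell types moved with the treatment. The 8 monocyte markers summed to 2851 to 2884 CPM in DMSO and 420 to 441 CPM with BW723C86, the 10 neutrophil markers to 2579 to 2655 and 703 to 807 CPM, and the 8 dendritic cell markers to 514 to 526 and 2358 to 2515 CPM. Single genes made up most of each of these sums. Fn1 went from 2170 ± 15 to 243 ± 4.96 CPM, and the 8 monocyte markers were all lower. Mmp8 went from 2417 ± 46.1 to 716 ± 56.7 CPM, and the 7 neutrophil markers tested were all lower. Itgax went from 471 ± 6.7 to 2361 ± 79 CPM; of the 7 dendritic cell markers tested 5 were higher, and Ccr7 (log2 change -0.07) and Flt3 did not pass. The 9 lymphocyte and mast cell markers measured summed to 98.6 to 106 and 54.9 to 59.4 CPM. Erythroid markers, of interest because red cell precursors are rich in catalase, Prdx2 and Blvrb, summed to 2.11 to 2.56 CPM over all 6 libraries, with Alas2 at 0 throughout. Neuronal markers summed to at most 0.401 CPM, with Map2, Nefl and Dcx at 0 in every library. The part of the monocyte, neutrophil, dendritic, lymphocyte and mast cell shifts in the antioxidant results was not tested, and in bulk RNA fewer cells of a type cannot be told apart from less RNA per cell.

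NRF2, encoded by Nfe2l2, is a transcription factor that KEAP1 holds in the cytoplasm and passes to a ubiquitin ligase for destruction. Oxidants and electrophiles modify KEAP1, and NRF2 then enters the nucleus, pairs with a small MAF protein and binds antioxidant response elements, where the repressor BACH1 competes with it until haem displaces it. Its targets make and recycle glutathione, reduce thioredoxin, break down haem and regenerate NADPH, the reductant on which both systems run, and in macrophages they buffer the oxidants of the respiratory burst and the haem and lipids taken up with dying cells.

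With BW723C86, 27 of the 39 genes rose, 7 fell and 5 did not pass the test (edgeR's quasi-likelihood test, two-sided, Benjamini-Hochberg adjusted p under 0.05 over 15567 tested genes). Across all tested genes, 42% changed, 21.3% higher and 20.7% lower, against 87.2% of the antioxidant genes. The 39 were chosen with earlier results of these data known. Among 83 other tested genes of these pathways, 49.4% changed. The antioxidant genes are mostly abundant, and abundant genes changed more often. Of all genes with a mean of at least 5 CPM 52.6% changed, against 33 of the 37 antioxidant genes above that level. Their median log2 fold change, BW723C86 over DMSO, was 0.26, beside 0.0042 for all tested genes. The 3 libraries of each group did not overlap for 35 of the 39 genes, against 52.3% of all tested genes. Most changes were small, since 21 of the 34 changed by less than 1.5-fold. Srxn1, Gclm, Nqo1 and the scarce transcript Me1 rose at least 2-fold. When a change beyond 1.2-fold was required by the test, 15 of the 39 were higher and 4 lower, as were 3208 of all 15567 genes in either direction. Their summed level went from 7831 ± 67.4 to 9431 ± 186 CPM.

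**Figure D1:**
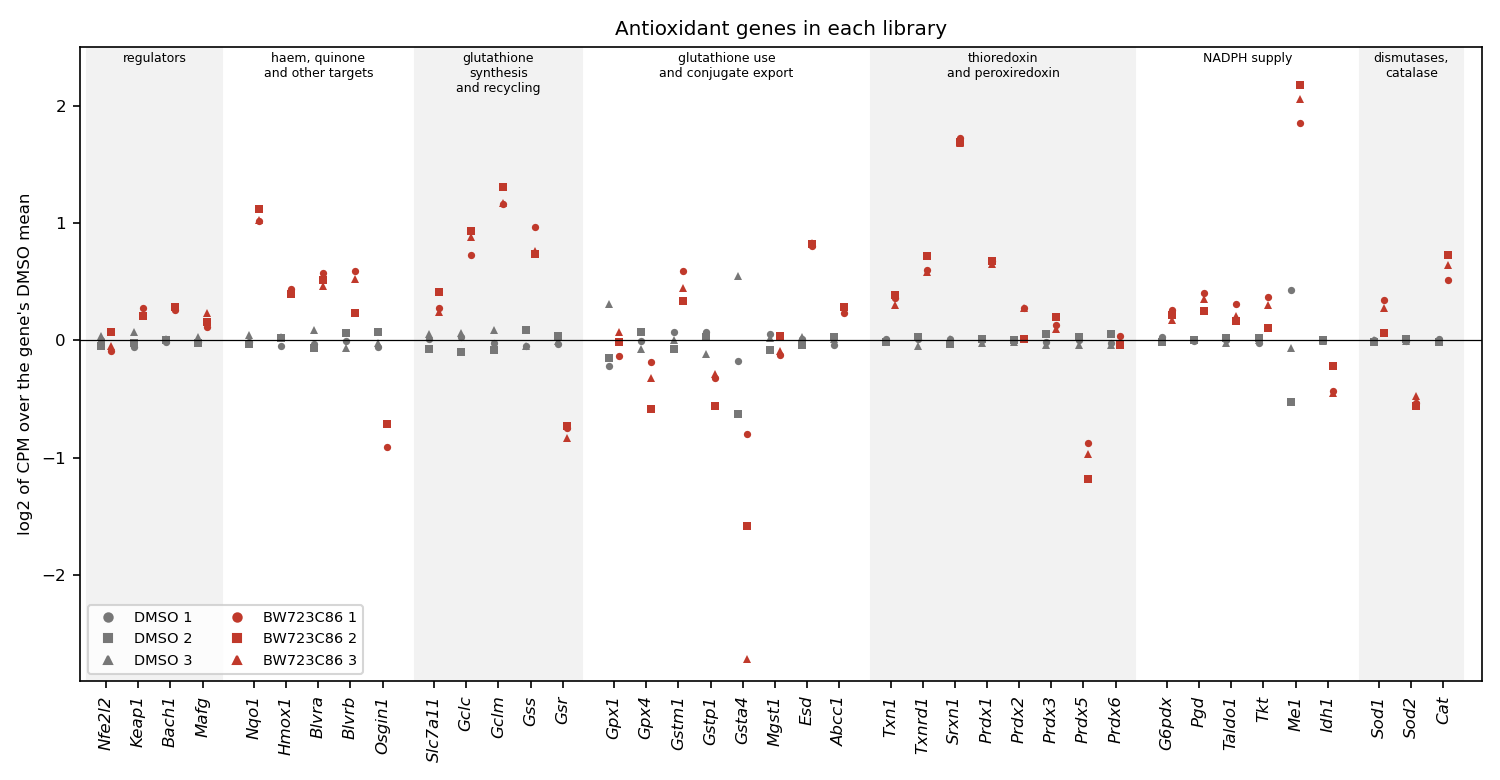
Level of each of the 39 antioxidant genes in each of the 6 libraries, as the log2 of its CPM over the mean of its 3 DMSO libraries (grey, DMSO; red, BW723C86; symbol shape, replicate number). Srxn1, Gclm, Nqo1 and Me1 stand highest and all treated points of Prdx5, Gsr and Osgin1 lie below their controls, while the 3 BW723C86 points of Nfe2l2 lie on both sides of the DMSO mean.

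**Figure D2:**
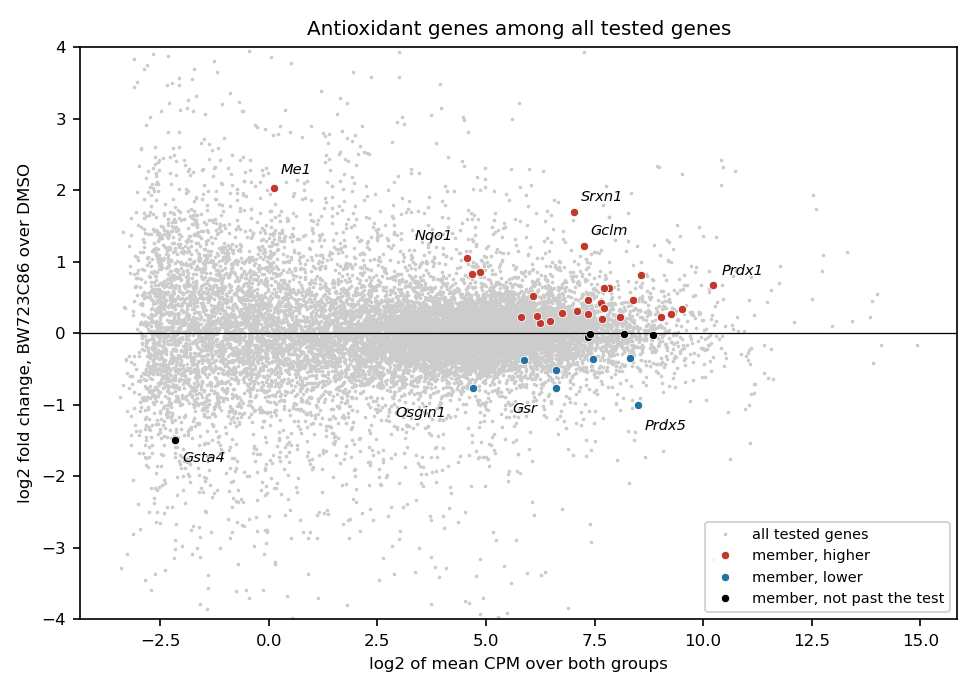
Log2 fold change, BW723C86 over DMSO, against the log2 of the mean CPM over both groups for all 15567 tested genes (light grey) and the 39 antioxidant genes (red, higher; blue, lower; black, not past the test). The vertical axis is limited to 4 in either direction, which leaves out 81 genes, and 27 red points lie above 0 against 7 blue points below it.

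Since NRF2 acts through a short DNA element, the promoters of the set were read for it. RefSeq windows (mouse build GRCm38.p6, from 250 bases before to 50 bases after an annotated start) were matched by symbol for 33 of the 39 genes. The core of the antioxidant response element, TGACNNNGC on either strand, was found for 12 of these 33 (36.4%), against 14.0% of all 27025 genes with a window. A second element, TGANTCAGC, known as a CNC-MAF composite, starts with an AP-1 site (TGANTCA) and ends in the same GC. It was found for 5 of the 33 (15.2%), against 1.4% of all genes. The AP-1 site itself was found for 5 of the 33 (15.2%), against 9.0% of all genes. The genes were picked from the known biology of these pathways, so their higher shares are no separate result about the treatment. Every TGANTCAGC also contains a TGANTCA, and of its forms only TGACTCAGC also matches the core. Of the 12 genes with the core, 10 rose and 2 (Nfe2l2 and Mgst1) did not pass. Of the 21 with a window but no core match, among them Nqo1, Esd and Cat, 14 rose, 6 fell and 1 did not pass, and the difference between these counts was not tested. Of the 5 with the composite, Me1, Srxn1 and Prdx1 rose and Gstp1 and Osgin1 fell. A match is a string of letters in this window and shows no binding. Printed here are the windows of Srxn1, Prdx1 and Gclm, which rose, and of Osgin1, which fell, each of them with a match. Nqo1 (log2 change 1.06) and Esd (0.82) rose more than Prdx1 (0.67), and their windows, not printed, hold neither element. Sequences run 5′ to 3′ on the gene's strand, with capitals marking matches to either element. On the opposite strand the elements read as reverse complements.
Srxn1 (chr2:152105274-152105573, forward strand): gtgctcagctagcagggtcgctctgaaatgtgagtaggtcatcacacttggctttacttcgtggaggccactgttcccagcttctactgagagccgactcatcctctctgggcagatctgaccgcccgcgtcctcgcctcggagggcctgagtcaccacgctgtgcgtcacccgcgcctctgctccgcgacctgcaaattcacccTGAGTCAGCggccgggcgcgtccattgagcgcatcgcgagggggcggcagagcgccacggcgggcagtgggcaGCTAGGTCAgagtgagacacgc
Prdx1 (chr4:116685349-116685648, forward strand): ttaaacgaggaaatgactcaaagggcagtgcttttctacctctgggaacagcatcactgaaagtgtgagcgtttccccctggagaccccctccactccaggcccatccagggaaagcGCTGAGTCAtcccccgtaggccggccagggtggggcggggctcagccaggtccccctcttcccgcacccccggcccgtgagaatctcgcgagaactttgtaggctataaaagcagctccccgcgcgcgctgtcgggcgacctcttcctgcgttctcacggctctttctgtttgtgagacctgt
Gclm (chr3:122245307-122245606, forward strand): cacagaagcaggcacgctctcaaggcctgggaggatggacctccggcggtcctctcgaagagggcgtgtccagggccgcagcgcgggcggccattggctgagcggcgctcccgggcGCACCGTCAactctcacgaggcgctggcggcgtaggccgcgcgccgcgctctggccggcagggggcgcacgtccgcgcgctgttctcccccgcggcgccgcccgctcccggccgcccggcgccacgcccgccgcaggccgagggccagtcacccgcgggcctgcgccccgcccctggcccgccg
Osgin1 (chr8:119436897-119437196, forward strand): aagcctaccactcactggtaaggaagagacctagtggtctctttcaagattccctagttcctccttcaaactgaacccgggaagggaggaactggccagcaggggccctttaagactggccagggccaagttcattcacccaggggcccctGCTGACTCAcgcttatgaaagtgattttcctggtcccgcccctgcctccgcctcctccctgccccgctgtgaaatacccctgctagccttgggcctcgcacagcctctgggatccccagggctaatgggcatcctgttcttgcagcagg
The first base of the Srxn1 matches lay at -45 and 29 from the start, that of Prdx1 at -133, that of Gclm at -134 and that of Osgin1 at -99. Windows for Hmox1, Gclc, Gsr, Gsta4, Abcc1 and Prdx6 were not matched, and elements outside these windows were not searched.

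**Figure D3:**
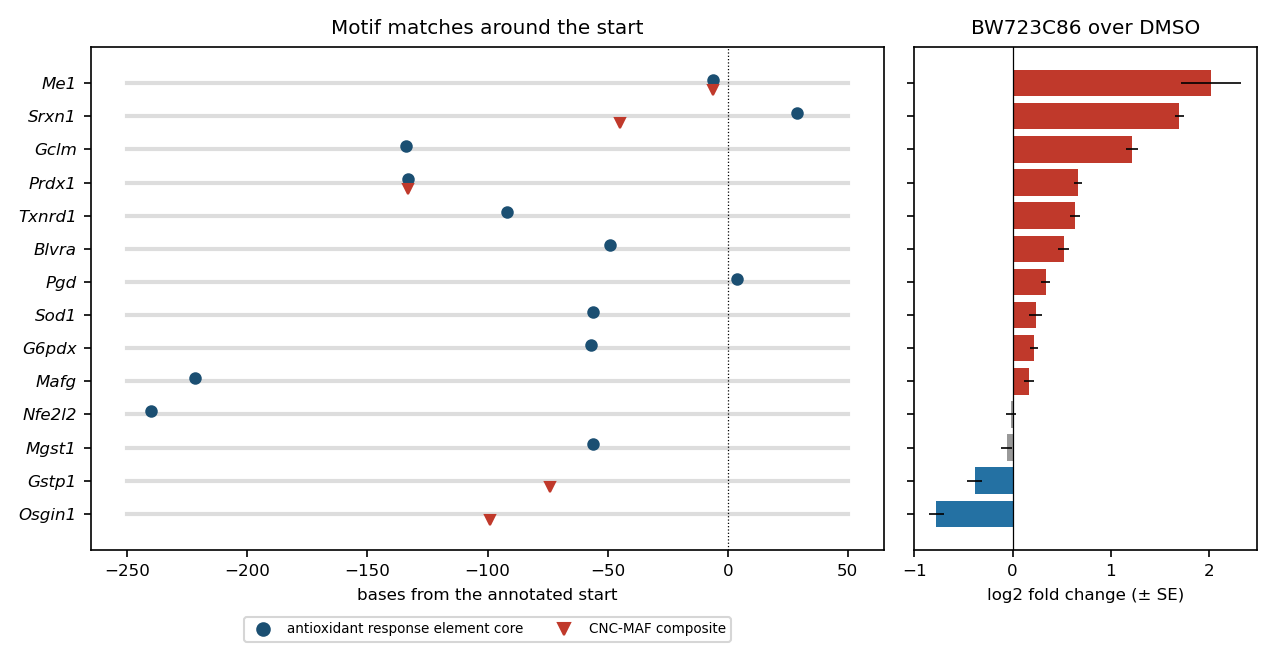
Left, position of the first base of each match to the antioxidant response element core (circles) or to the CNC-MAF composite (triangles), in bases from the annotated start, for the 14 genes with a match. Right, log2 fold change of the same genes (bars, ± SE; red, higher; blue, lower; grey, not past the test), from 2.02 for Me1 down to -0.77 for Osgin1.

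For the transcript of NRF2 itself no difference was detected. Nfe2l2 (ENSMUSG00000015839) stood at 291, 281 and 297 CPM in the DMSO libraries and 273, 305 and 281 CPM in the BW723C86 libraries. The groups overlapped, and the log2 fold change was -0.02 (SE 0.05, 95% interval -0.13 to 0.09, edgeR adjusted p = 0.809). NRF2 is regulated mainly through the stability of the protein, which RNA counts do not measure. Bach1 (ENSMUSG00000025612), the repressor of the same elements, was at 95.7, 97.0 and 97.7 CPM in DMSO and 116, 118 and 118 CPM with BW723C86. All 3 treated libraries lay above the controls, with a log2 change of 0.28 (SE 0.04 and adjusted p = 0.000168). Keap1 (ENSMUSG00000003308), the sensor that targets NRF2 for degradation, was at 49.6, 50.6 and 54.0 against 62.4, 59.3 and 59.4 CPM (log2 change 0.23, SE 0.05, adjusted p = 0.0042). Mafg (ENSMUSG00000051510), a small MAF partner, was at 83.0, 82.5 and 85.6 against 90.3, 93.4 and 98.1 CPM (0.17, SE 0.05, adjusted p = 0.0131). These 2 rises were slight and did not pass once trends of expression with GC content and length were removed from each library (adjusted p = 0.06 for Keap1 and 0.302 for Mafg). The call of Mafg was also lost without DMSO replicate 1 (adjusted p = 0.067), DMSO replicate 2 (0.0701) or BW723C86 replicate 3 (0.112). An exon of Mafg shares 124 bases with Sirt7 on the same strand, which had 88.8% as many counts and rose too (0.26, adjusted p = 0.00456). The part of Sirt7 reads in the value of Mafg was not tested. Exons of Keap1 overlap Gm16754 on the opposite strand, which had 1.21% as many counts and did not pass (adjusted p = 0.151).

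Among other genes of the regulatory circuit, 1 of 7 rose, 2 fell and 4 did not pass (42.9% changed, beside 42% of all tested genes). Sqstm1, encoding p62, an autophagy receptor that also binds KEAP1, rose from 511 ± 5.87 to 690 ± 39.6 CPM (log2 change 0.43, SE 0.05, adjusted p = 1.16e-05). Cul3, the scaffold of the ligase that KEAP1 serves, fell from 88.1 ± 1.57 to 69.3 ± 1.28 CPM (-0.35, SE 0.05, adjusted p = 5.11e-05). Maff, another small MAF gene, fell from 14.5 ± 0.821 to 9.69 ± 0.682 CPM.

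Haem and quinone targets rose in 4 of 5 cases (80%), beside 21.3% of all tested genes. Nqo1 (ENSMUSG00000003849), the quinone reductase most used as a readout of NRF2, was at 15.2, 15.0 and 15.9 CPM in DMSO and 31.2, 33.5 and 31.3 CPM with BW723C86. The level thus doubled in each treated library, a log2 change of 1.06 (SE 0.07 and adjusted p = 5.29e-08). Hmox1 (ENSMUSG00000005413), the inducible haem oxygenase that opens haem to biliverdin, iron and carbon monoxide, was at 167, 176 and 176 against 235, 227 and 232 CPM (0.42, SE 0.04, adjusted p = 5.59e-06). The biliverdin reductase genes rose alongside it. Blvra, whose product takes the next step to bilirubin, went from 55.4 ± 3.03 to 79.5 ± 2.99 CPM (0.52, SE 0.06, adjusted p = 7.41e-06). Blvrb went from 138 ± 6.27 to 189 ± 23.6 CPM (0.46, adjusted p = 0.000575). Osgin1 (ENSMUSG00000074063), an oxidative stress-induced growth inhibitor also known as an NRF2 target, went the other way. It was at 31.8, 34.7 and 32.5 CPM in DMSO and 17.5, 20.1 and 20.1 CPM with BW723C86 (-0.77, SE 0.07, adjusted p = 2.55e-06). Its groups did not overlap, and its window, printed above, holds the CNC-MAF composite but no match to the core.

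Of 14 other detoxification and haem genes, 7 rose, 2 fell and 5 did not pass (64.3% changed, beside 42% of all tested genes). Ephx1, the microsomal epoxide hydrolase gene, rose from 21.6 ± 0.588 to 89.2 ± 7.64 CPM (log2 change 2.04, SE 0.07, adjusted p = 9e-11). Slc48a1, encoding a transporter that moves haem out of phagolysosomes, rose from 229 ± 10.5 to 444 ± 35.2 CPM (0.95, SE 0.06, adjusted p = 4.27e-08), and the carbonyl reductase gene Cbr3 from 18.9 ± 0.937 to 30.6 ± 2.45 CPM (0.70, SE 0.08). Fth1, the ferritin heavy chain gene, fell from 17527 ± 21.7 to 13096 ± 731 CPM (-0.42, SE 0.05, adjusted p = 1.7e-05). Ftl1, the ferritin light chain gene, named after its value was seen, had means of 10458 ± 186 and 11719 ± 1152 CPM, a difference not past the test (0.16, SE 0.06, adjusted p = 0.0533).

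Glutathione synthesis rose at each of its steps while the reductase that recycles glutathione fell. Slc7a11, the cystine importer of system xc-, went from 123 ± 5.58 to 152 ± 9.59 CPM (0.31, SE 0.06, adjusted p = 0.000526). Glutamate-cysteine ligase, the rate-limiting enzyme, has a catalytic subunit, Gclc, and a modifier, Gclm. Gclm (ENSMUSG00000028124) was at 91.2, 87.6 and 98.4 CPM in DMSO and 207, 229 and 208 CPM with BW723C86, more than doubling in each treated library (1.22, SE 0.06, adjusted p = 2.15e-09). Exons of Gclm overlap Gm17494 on the opposite strand, which had 12.4% as many counts and did not pass (-0.22, SE 0.68, adjusted p = 0.837). Gclc (ENSMUSG00000032350) was at 21.3, 19.5 and 21.7 against 34.4, 39.8 and 38.3 CPM (0.85, SE 0.07, adjusted p = 9.42e-07). Per kb of exon, Gclc made up 27.4% ± 0.61 of the 2 transcripts in DMSO and 22.6% ± 0.89 with BW723C86 (SD, n = 3), with no overlap between groups. Exon length, here and below, is the union of all annotated exons of a gene. Gss, the synthetase of the second step, went from 18.6 ± 1.06 to 33.0 ± 2.9 CPM (0.82, SE 0.08, adjusted p = 2.33e-06). Its exons overlap Acss2, on the opposite strand, which rose as well (1.25, SE 0.09) with 48.8% as many counts, and the sources used here do not say whether strand was used in counting. Gsr (ENSMUSG00000031584), the NADPH-dependent glutathione reductase, was at 120, 126 and 122 CPM in DMSO and 73.4, 74.1 and 69.0 CPM with BW723C86. Every treated library lay far below the controls (-0.77, SE 0.05, adjusted p = 3.79e-08).

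The 8 genes of glutathione use and export were mixed, 3 higher, 2 lower and 3 not past the test. Thus 62.5% changed, beside 42% of all tested genes and 52.6% of those with a mean of at least 5 CPM. Esd (ENSMUSG00000021996), the esterase that frees glutathione from S-formylglutathione, was at 276, 267 and 279 CPM in DMSO and 479, 484 and 486 CPM with BW723C86. The treated libraries differed from each other by far less than from the controls (0.82, SE 0.04, adjusted p = 5.37e-09). Gstm1 (ENSMUSG00000058135), a mu-class glutathione transferase, was at 297, 268 and 283 against 427, 357 and 386 CPM (0.46, SE 0.06, adjusted p = 6.31e-05). Abcc1 (ENSMUSG00000023088), the pump that exports glutathione conjugates, was at 145, 152 and 150 against 175, 181 and 182 CPM (0.27, SE 0.04, adjusted p = 0.000253). Reads of the mu-class and pi-class transferases are uncertain, because near-identical copies may share them.

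Gpx4 (ENSMUSG00000075706), the selenoenzyme that reduces lipid peroxides in membranes and guards against ferroptosis, fell. Its levels were 360, 379 and 343 CPM in DMSO and 318, 240 and 289 CPM with BW723C86 (-0.35, SE 0.09, adjusted p = 0.00947). The treated libraries were spread widely but all lay below the controls. Gstp1 (ENSMUSG00000060803), the pi-class transferase, was at 70.2, 68.1 and 61.5 against 53.4, 45.2 and 54.6 CPM (-0.38, SE 0.08, adjusted p = 0.00117), again with no overlap. Gpx1, the abundant cytosolic glutathione peroxidase, was at 402, 420 and 578 CPM in DMSO and 425, 463 and 491 CPM with BW723C86. DMSO replicate 3 stood apart here, so that the interval of the log2 fold change ran from -0.43 to 0.38 (adjusted p = 0.933), and without that library the value was 0.16 (adjusted p = 0.0933). Mgst1, a microsomal transferase, was at 167 ± 8.46 and 161 ± 9.45 CPM (-0.06, 95% interval -0.18 to 0.06, adjusted p = 0.431), and without BW723C86 replicate 2 it passed as lower (-0.12, adjusted p = 0.025). Gsta4 rested on 3 to 38 counts per library and did not pass (-1.50, SE 0.65, adjusted p = 0.083).

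Of 35 other glutathione genes tested, 7 rose, 10 fell and 18 did not pass (48.6% changed, beside 42% of all tested genes). Gpx3, the secreted glutathione peroxidase gene, rose from 20.1 ± 1.04 to 72.9 ± 7.91 CPM (log2 change 1.86, SE 0.08, adjusted p = 9.07e-10). It thereby went from 2.06% ± 0.3 to 7.69% ± 0.7 of the summed Gpx1, Gpx3 and Gpx4 level per kb of exon. Glrx, encoding the glutathione-dependent reductase glutaredoxin-1, fell from 177 ± 4.28 to 89.7 ± 2.04 CPM (-0.98, SE 0.04, adjusted p = 1.62e-09), and Mgst2, another microsomal transferase, from 44.9 ± 1.2 to 23.2 ± 1.13 CPM. Gsto1, an omega-class transferase, rose from 142 ± 2.98 to 206 ± 7.28 CPM. Some enzymes of glutathione breakdown are named here after their values were seen, and they form no list of their own. Ggt5, a gamma-glutamyl transferase that cleaves glutathione conjugates, went from 6.39 ± 0.675 to 1.6 ± 0.322 CPM (log2 change -2.00, SE 0.18). Oplah, which opens 5-oxoproline back to glutamate, went from 9.51 ± 0.666 to 2.81 ± 0.629 CPM (-1.76, SE 0.16). Chac2 (-0.65, SE 0.19) and Chac1 (-0.36, SE 0.10), which cleave glutathione in the cytosol, also fell. Ggct, the cyclotransferase, did not pass (-0.26, SE 0.11, adjusted p = 0.0636), and Ggt1 and Ggt7 were too scarce to test.

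In the thioredoxin arm 6 of 8 genes rose and 1 fell (87.5% changed, beside 42% of all tested genes). Thioredoxin reduces peroxiredoxins, which remove hydrogen peroxide, and thioredoxin reductase returns it to the reduced form with NADPH. Srxn1 (ENSMUSG00000032802), encoding sulfiredoxin, which repairs over-oxidized peroxiredoxins, was at 62.4, 60.6 and 62.4 CPM in DMSO and 204, 199 and 198 CPM with BW723C86. It rose 3.24-fold with hardly any spread between replicates (log2 fold change 1.70, SE 0.04, adjusted p = 8.31e-12), the smallest p of the 39. Txnrd1, the cytosolic thioredoxin reductase, went from 180 ± 4.89 to 279 ± 14.5 CPM (0.63, SE 0.05, adjusted p = 3.24e-07) and Txn1, thioredoxin itself, from 185 ± 1.68 to 236 ± 6.91 CPM (0.35, SE 0.04, adjusted p = 2.39e-05).

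The peroxiredoxins did not move together. Prdx1 (ENSMUSG00000028691), the main cytosolic form, was at 926, 933 and 912 CPM in DMSO and 1478, 1474 and 1452 CPM with BW723C86 (0.67, SE 0.04, adjusted p = 3.72e-08). Prdx5 (ENSMUSG00000024953), found in mitochondria, peroxisomes and cytosol, was at 485, 494 and 471 against 264, 213 and 248 CPM (-0.999, SE 0.07, adjusted p = 9.49e-08). Exons of Prdx5 overlap Trmt112 on the opposite strand, which fell (-0.29, adjusted p = 0.0207) with 8.19% as many counts. Prdx1 and Prdx5 thus went in opposite directions without overlap between groups. Prdx4, the form of the endoplasmic reticulum and not in the set, rose from 52.9 ± 1.76 to 128 ± 3.74 CPM (1.27, SE 0.05, adjusted p = 3.12e-10). Prdx6, which uses glutathione in place of thioredoxin, was at 169 ± 5.87 and 168 ± 5.33 CPM (-0.01, 95% interval -0.11 to 0.09, adjusted p = 0.887). As shares of all 6 peroxiredoxin transcripts per kb of exon, Prdx1 went from 43.3% ± 0.28 to 59.1% ± 1.51, Prdx4 from 3.58% ± 0.1 to 7.42% ± 0.16 and Prdx5 from 32.2% ± 0.22 to 13.8% ± 1.17.

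Prdx2 and Prdx3 passed narrowly. Prdx2, the form best known from red cells, was at 192, 192 and 190 CPM in DMSO and 232, 193 and 231 CPM with BW723C86 (0.19, SE 0.06, adjusted p = 0.0293). BW723C86 replicate 2 lay next to the controls. The call was lost without any 1 of the other 5 libraries (adjusted p = 0.0822 to 0.155) and with GC and length trends removed (0.136), and without BW723C86 replicate 2 the value was 0.26 (adjusted p = 6.82e-06). Its exons also overlap Junb (log2 change 0.07, adjusted p = 0.486) and Rnaseh2a (0.09, adjusted p = 0.296) on the opposite strand. Junb had 68.0% and Rnaseh2a 29.6% as many counts as Prdx2. Prdx3, the mitochondrial matrix form, was at 71.9 ± 2.42 and 79.3 ± 2.8 CPM (0.14, SE 0.05, adjusted p = 0.0379), and the call was lost without any 1 of the 6 libraries (0.0507 to 0.151), with DESeq2 (0.0631), without the low-count filter (0.0719) and with the replicate block (0.0607). Transcripts encoded by mitochondrial DNA summed to 44092 ± 228 CPM in DMSO and 31949 ± 2249 CPM with BW723C86, and the part of this in the values of the mitochondrial enzymes was not tested.

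**Figure D4:**
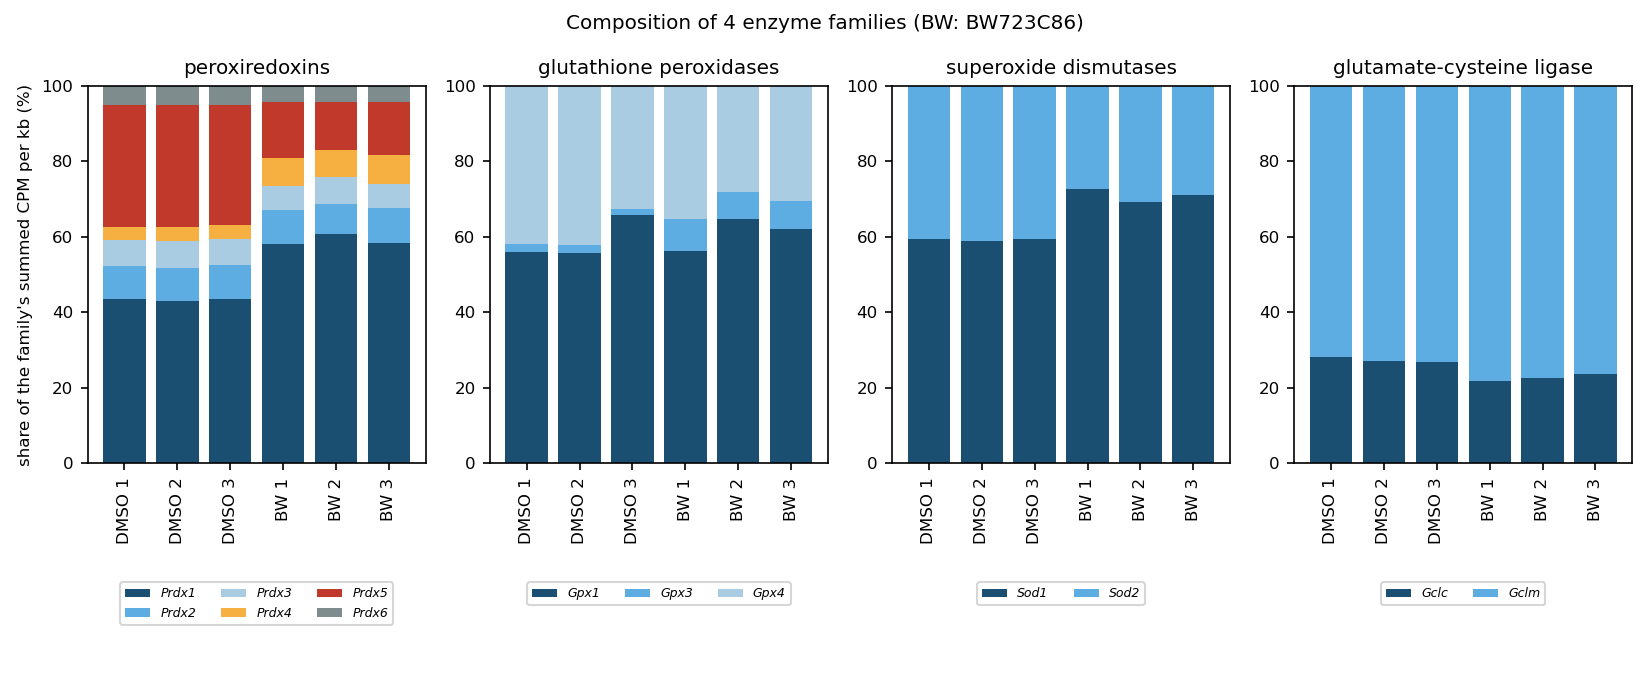
Composition of 4 enzyme families in each of the 6 libraries, as the percentage of the family's summed CPM per kb of exon (stacked bars to 100%; BW, BW723C86). The Prdx1 share stands between 58.1% and 60.9% in the treated libraries against 43.0% to 43.5% in DMSO, and the Prdx5 share falls from about 32% to 12.5% to 14.8%.

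Of 12 other thioredoxin genes tested, 3 rose, 2 fell and 7 did not pass (41.7% changed, beside 42% of all tested genes). Txnip, encoding the protein that binds and inhibits thioredoxin and a sensor of glucose supply, fell from 1410 ± 5.55 to 735 ± 14.1 CPM (-0.94, SE 0.04, adjusted p = 1.29e-09). Msra, a methionine sulfoxide reductase gene, fell from 23.2 ± 0.369 to 18.2 ± 1.53 CPM, and Txnrd3, another thioredoxin reductase gene, rose from 7.85 ± 0.632 to 10.4 ± 0.264 CPM.

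NADPH-supplying enzymes rose in 5 of 6 cases (83.3%), beside 21.3% of all tested genes. The 4 pentose phosphate genes of the set all rose by a small amount. Pgd (ENSMUSG00000028961), 6-phosphogluconate dehydrogenase, was at 645, 650 and 648 CPM in DMSO and 856, 770 and 827 CPM with BW723C86 (0.34, SE 0.05, adjusted p = 8.58e-05). G6pdx, the entry enzyme, went from 251 ± 4.98 to 292 ± 8.79 CPM (0.22, SE 0.04, adjusted p = 0.00122). Exons of G6pdx overlap Ikbkg on the opposite strand, which rose by 0.32 with 19.9% as many counts. Transaldolase Taldo1 went from 485 ± 6.99 to 568 ± 29.3 CPM and transketolase Tkt from 555 ± 8.03 to 666 ± 62.4 CPM. For these 4 pentose phosphate genes the groups did not overlap, yet none passed when a change beyond 1.2-fold was required. Me1 (ENSMUSG00000032418), malic enzyme 1, was at 0.579, 0.298 and 0.411 CPM in DMSO and 1.55, 1.95 and 1.79 CPM with BW723C86. That is a rise of 2.02 on the log2 scale (SE 0.31, adjusted p = 0.000149), on 18 to 45 counts per DMSO library and 89 to 140 per treated library. Idh1 (ENSMUSG00000025950), the cytosolic NADP-linked isocitrate dehydrogenase, was the exception at 199, 200 and 197 against 147, 171 and 145 CPM (-0.36, SE 0.06, adjusted p = 0.000271).

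Of 15 other NADPH genes tested, 2 rose, 5 fell and 8 did not pass, so that 46.7% changed beside 42% of all tested genes. The pentose phosphate isomerases Rpe and Rpia, which interconvert the 5-carbon sugars after Pgd, fell from 63.5 ± 2.22 to 45.1 ± 2.97 CPM (-0.49, SE 0.06, adjusted p = 2.42e-05) and from 27.1 ± 0.883 to 19.6 ± 1.16 CPM (-0.46, SE 0.07, adjusted p = 0.000162). Nadk, the kinase that makes NADP from NAD, fell from 149 ± 4.34 to 127 ± 3.06 CPM. Pgls and H6pd are named after their values were seen. Pgls, whose product acts between G6pdx and Pgd, fell from 154 ± 7.21 to 126 ± 16.7 CPM (-0.29, SE 0.08, adjusted p = 0.0161). H6pd, the hexose-6-phosphate dehydrogenase gene, rose from 60.7 ± 1.87 to 70.5 ± 3.74 CPM (0.22, SE 0.055, adjusted p = 0.00642). Aldh1l1, a folate enzyme that yields NADPH, rose from 9.01 ± 0.808 to 23.5 ± 0.976 CPM (1.38, SE 0.09, adjusted p = 4.82e-08).

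Catalase and the superoxide dismutases completed the set. Cat (ENSMUSG00000027187), the peroxisomal enzyme that splits hydrogen peroxide, was at 168, 164 and 167 CPM in DMSO and 238, 275 and 259 CPM with BW723C86 (0.63, SE 0.05, adjusted p = 8.23e-07). Sod1 (ENSMUSG00000022982), the copper-zinc enzyme of the cytosol, was at 66.5, 65.7 and 66.3 against 84.2, 69.2 and 80.3 CPM (0.23, SE 0.07, adjusted p = 0.0119), a call lost without DMSO replicate 2 (0.0545) or BW723C86 replicate 3 (0.0599). Sod2 (ENSMUSG00000006818), the manganese enzyme of mitochondria, was at 114, 115 and 114 against 79.3, 77.8 and 82.7 CPM (-0.52, SE 0.04, adjusted p = 9.55e-07). Per kb of exon, Sod1 went from 59.3% ± 0.32 to 71.0% ± 1.82 of the 2 dismutase transcripts, without overlap between groups.

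**Figure D5:**
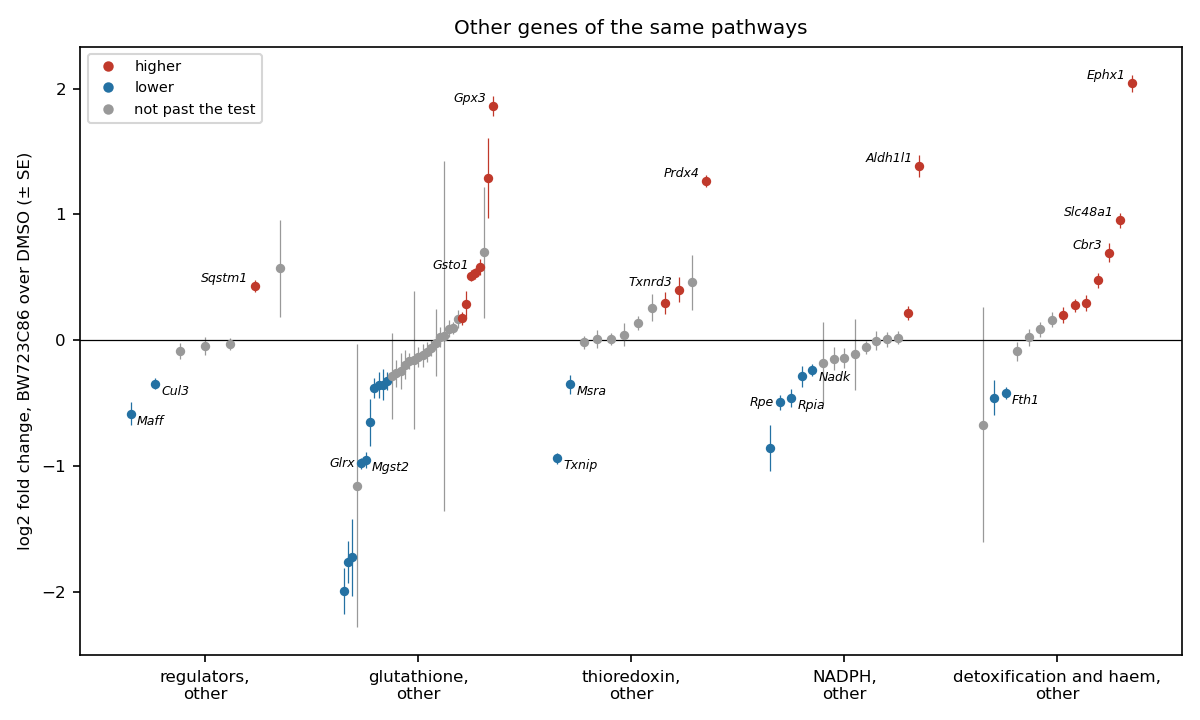
Log2 fold change, BW723C86 over DMSO (points, ± SE), of the 83 tested genes of the same pathways that lie outside the 39, in 5 lists (red, higher; blue, lower; grey, not past the test; names for up to 4 genes of smallest p per list). Higher and lower calls were nearly equal in number, 20 against 21, and 49.4% changed beside 42% of all tested genes.

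Together, the 83 other pathway genes that could be tested held 20 higher and 21 lower (49.4% changed, median log2 fold change -0.03). Of all tested genes 42% changed, 21.3% higher and 20.7% lower. Among the 39, levels were ordered per kb of exon. The length used, the union of all annotated exons, was 3.043 kb for Prdx1 and 1.441 kb for Gpx1. It can exceed the length of the transcript expressed, so the order also depends on the annotation. In DMSO, Gpx1 was highest at 324 ± 67.2 CPM per kb, Prdx1 followed at 304 ± 3.48, and these 2 did not differ beyond their spread. Prdx5 came next at 226 ± 5.33, close to Taldo1 at 223 ± 3.22. With BW723C86, Prdx1 was highest at 482 ± 4.65 CPM per kb, Gpx1 stood at 319 ± 23.1, and Prdx5 had dropped from place 3 to place 10 at 113 ± 12.2. Me1, Gsta4 and Gss were the 3 lowest in both groups, at no more than 5.58 CPM per kb.

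BW723C86 replicate 2 set itself apart for a part of the set. Its deviation from the mean of the other treated libraries was -20.7% for Gpx4, -19.8% for Blvrb and -16.8% for Prdx2 and Prdx5, and 16.7% for Idh1, 16.5% for Me1 and 11.1% for Slc7a11. It was the lowest treated library for 14 of the 39 genes and the highest for 14. Replicate 1 was lowest for 13 and highest for 18, and replicate 3 for 12 and 7, so these counts alone do not single out replicate 2. Across the 37 genes of at least 5 CPM, this deviation had a Pearson r of -0.52 with the GC content of the transcript and of 0.12 with the log2 of length, a description over genes that share the same libraries. Leaving that library out, 26 of the 39 rose and 8 fell.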

How the data were processed

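Poly(A)-selected, strand-marked (dUTP) libraries of 6 samples were sequenced as paired ends, per the labels' protocols. The deposited table holds estimated counts, 1 row per gene. The submitters' processing notes list fastp, HISAT2, StringTie and edgeR, with GRCm39 and GRCh38 as builds, but no versions or roles; the sources used here give neither strand setting nor annotation. The authors' estimated counts were already whole numbers, so rounding changed none. Symbols for 27005 of 28822 identifiers, exon lengths and GC content came from GENCODE M21 (GRCm38), a different build, used for no coordinates of the data. Exon length is the union of all annotated exons of a gene. Orders and family shares per kb thus depend on the annotation as well as on level.

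Differences were tested with edgeR 4.0.16 in R 4.3.3 (quasi-likelihood F test, robust, TMM, default expression filter, all 6 samples), two-sided, with Benjamini-Hochberg adjustment over 15567 genes and a threshold of 0.05, and the code was tested on simulated data. SE is the absolute log2 fold change over the square root of F, and 95% intervals use the t distribution with the fit's degrees of freedom. Within groups, every pair of libraries differed by more than sampling noise (chi-square per degree of freedom 2.46 to 8.88 with counts divided by 4), so all 6 were kept. The pairs with BW723C86 replicate 2 gave 8.88 and 6.09, and the other pairs 2.46 to 2.77. Counts were divided by 4 because low values pile up at multiples of 4, so the fragments behind a count are uncertain. Marker sums were compared by an exact permutation test, for which 3 against 3 cannot give a p under 0.1, and gave 0.1 for every list except the erythroid one (0.6).

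Per-library values are given for the 4 regulators and, in each other arm, for the 3 genes of smallest p and those called against their arm; up to 4 other pathway genes per list are named. The genes and lists were chosen with earlier results of these data known. Per-library values of Gpx1 and Prdx2 and the genes marked as such were added after their values were seen. Results were recomputed with DESeq2 1.42.0, with limma-voom (limma 3.58.1), under RLE and upper-quartile scaling, without the filter or with one at 5 CPM, without robust estimation, with a replicate block, without each library, on counts divided by 4, against a fold change of 1.2 and, chosen after seeing the data, GC and length trends removed.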

Additional observations from a re-analysis of the deposited data

How the results depend on the processing

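Of the 34 antioxidant genes that changed, 29 kept their call in each of the 16 alternatives other than the test against a fold change of 1.2 in which they were tested (Me1 was not tested with the 5 CPM filter), and none changed sign in any alternative that gave it a value. The 5 that lost it in at least 1 were Keap1, Mafg, Prdx2, Prdx3 and Sod1. Against a fold change of 1.2, 3208 genes changed (1609 higher and 1599 lower), with 15 of the 39 higher and 4 lower and 12 other pathway genes higher and 11 lower; that test requires larger changes. Elsewhere the counts of the 39 stayed between 23 and 27 higher and 7 and 8 lower, and leaving out each library gave 23 to 26 higher and 7 to 8 lower. The median log2 fold change was 0.21 with GC and length trends removed and 0.20 to 0.27 with each library left out; the cause was not tested. With each library left out, the log2 change ran from -0.0837 to 0.0128 for Nfe2l2 (above 0 without BW723C86 replicate 1), from -0.12 to 0.161 for Gpx1 (above 0 without DMSO replicate 3 or, at 0.0289, BW723C86 replicate 1) and from -0.0397 to 0.0159 for Prdx6 (above 0 without DMSO replicate 2), and none of these 3 passed the test. Same-numbered samples did not deviate together (correlations of -0.03 to 0.03). With 3 libraries per group and replicates of unknown origin, this cannot exclude a pairing by number. With the replicate block 26 of the 39 were higher and 7 lower. Summed marker ratios (BW723C86 over DMSO) kept their direction, and with each library left out the neuronal ratio, on few counts, ran from 2.34 to 4.83. Gsta4 was not tested with counts divided by 4 or with the 5 CPM filter. Depth limits Me1 and Gsta4, whose fold changes rest on few counts.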
